A study of Mus musculus with 20 samples.

Results

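The MYC network is a set of basic helix-loop-helix leucine zipper transcription factors that compete for the shared partner MAX. The genes examined here were *Myc*, *Mycn*, *Mycl*, *Max*, *Mxd1*, *Mxd4*, *Mxi1*, *Mnt*, *Mga* and *Mlx*, chosen by name as the rows of the deposited expression table whose Ensembl identifier carries one of these symbols. They are 10 of the 39179 genes in the table, and each was matched. RNA-seq was performed on 20 sorted T-lineage samples from C57BL/6 mice in 5 groups, and the table gives the average over the libraries of each group. The 6 *Id2*-/-*Id3*-/- lymphomas came, per the sample labels, from lymph node in 4 cases and from spleen and thymus in 1 each, and were sorted as CD3+TCRβ+CD4+ cells in 4 cases and as CD3+TCRβ+CD8+ cells in 2. Their average thus mixes tumors of different phenotype from aged mice, and neither the Cre driver of each sequenced tumor nor its exact age is known here. The 3 *Id2*-/-*Id3*-/- CD4SP samples were CD4+TCRβ+CD8- thymocytes of mice aged 8 wk with floxed *Id2* and *Id3* alleles (both fl/fl) and *IL7R* Cre, in which both genes are deleted from the common lymphoid progenitor onwards. The 3 TFH samples were splenic CXCR5+CD44hi CD4 T cells of wild-type mice that had received sheep red blood cells as immunogen, so that they differ from thymocytes in organ and activation as well as in cell type. Another 3 CD4SP samples were labelled as *Id3*-/-, from thymi of mice also aged 8 wk in the legends of the study. The 5 control CD4SP samples are called wild type in the labels, whereas the methods and legends of the study name *Id3*+/- or littermate mice, aged 8 wk.

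MYC dimerizes with MAX, binds the E-box CACGTG and activates genes of ribosome production, nucleotide and amino acid metabolism and cell cycle entry. MXD1, MXD4, MXI1 and MNT take MAX away from MYC, occupy the same E-boxes and recruit SIN3 corepressors and histone deacetylases, while MGA pairs with MAX in a polycomb-related repressor complex. MLX is a MAX-like protein that pairs with MondoA and ChREBP, the products of *Mlxip* and *Mlxipl*, in responses to glucose, and also with some MXD proteins and MNT. In T cells, *Myc* is induced by antigen receptor and cytokine signals and drives growth before division, and *Mxd* genes are typical of resting or differentiated cells.

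Because the network reads and is read through E-boxes, its own promoters were searched for them. The windows ran from 250 bases before to 50 bases after each start in RefSeq (GRCm38.p6), and windows were matched for all members but *Myc*, 11 windows for 9 genes. CACGTG, which reads the same on both strands, was in the windows of 4 of the 9 genes, *Max*, *Mxd4*, *Mnt* and *Mlx*, and in 7.15% of all 32851 windows. The 4 sites are shown, with 12 bases on either side of the hexamer, which is in capitals, because they are the MYC/MAX type of E-box in genes of the network itself. *Mxd4* has its site 219 bases before the start (chr5:34187912-34187941, minus strand), *Mnt* 123 bases before it (chr11:74830789-74830818, plus strand), *Mlx* 40 bases before it (chr11:101087238-101087267, plus strand) and *Max* 3 bases before it (chr12:76962234-76962263, minus strand), counted from the first base of the hexamer.
Mxd4: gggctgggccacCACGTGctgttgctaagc
Mnt: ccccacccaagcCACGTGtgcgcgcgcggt
Mlx: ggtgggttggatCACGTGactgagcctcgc
Max: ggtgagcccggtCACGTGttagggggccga

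The E proteins that Id2 and Id3 hold in check favor other E-boxes, CAGGTG and CAGCTG, so these were searched on both strands as well and the matches are shown for comparison. *Mycl* held CAGGTG, printed as its reverse complement, beginning 106 bases before the start (chr4:122995813-122995842, plus strand), a hexamer found in 20.2% of all windows. *Mga* held CAGCTG, 23 bases after the start (chr2:119897239-119897268, plus strand), a hexamer found in 16.3% of all windows. A match describes the letters of the window, and no binding was measured in these samples.
Mycl: tggggccggcccCACCTGtcgccagcggag
Mga: gcgcaggctcttCAGCTGaagcggacacac

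Values below are the authors' averages of DESeq-normalized counts per group. With 1 average per group there is no spread between replicates, so no comparison here has a test, an error or a replicate check, and the order of neighboring groups cannot be set against their spread. Differences are log2 ratios of averages after adding 1 to each, and a gene is said to be past 2-fold when the size of that log2 ratio is at least 1. Ratios cover the 15536 genes whose average reached 10 in at least 1 group. In bulk samples, fewer cells that express a gene and less RNA per cell cannot be told apart. *Id2* averaged 30.5 in the lymphomas and 6.82 in *Id2*-/-*Id3*-/- CD4SP cells, against 2293 in control CD4SP cells, and *Id3* averaged 857 and 879.7 in those groups, against 1991 in control cells. In the *Id3*-/- labelled libraries, *Id3* averaged 2649.7, above the control average, so the label was not borne out by the level of the gene and directions drawn from this group are those of the libraries as labelled. *Id3* reads can also come from a part of the gene outside the deletion, which these averages cannot show. The T cell genes *Cd3d*, *Cd3e*, *Cd3g* and *Cd5* averaged between 5027 and 10837 in every group, and *Cxcr5*, the receptor that defines TFH cells, averaged 9568 in TFH cells and 44.6 in control CD4SP cells. *Rag1*, *Rag2* and *Ptcra*, which mark immature thymocytes, stayed at or under 14.2 in every group. Summed averages over all genes ranged from 13386015 in TFH cells to 15497262 in the lymphomas, and these sums are not library depths, which are unknown.

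*Myc* (ENSMUSG00000022346, chr15:61985391-61990374, plus strand) had its highest average in the lymphomas and its lowest in TFH cells, 6.91 times apart. It averaged 4326 in the lymphomas, 3015 in *Id2*-/-*Id3*-/- CD4SP cells, 626 in TFH cells, 2627 in the *Id3*-/- labelled libraries and 1576 in control CD4SP cells. Thus the 3 groups that carry an Id deletion or its label stood above control CD4SP cells, and TFH cells stood below them. Relative to control, *Myc* was 2.74-fold higher in the lymphomas (log2 ratio 1.46), 1.91-fold higher in *Id2*-/-*Id3*-/- CD4SP cells (0.94), 1.67-fold higher in the *Id3*-/- labelled libraries (0.74) and 2.52-fold lower in TFH cells (-1.33). The lymphoma average was 1.43 times that of *Id2*-/-*Id3*-/- CD4SP cells (log2 ratio 0.52). These 4 comparisons with control share 1 control average and are not independent of each other.

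Many genes differed by as much as *Myc* in the same comparisons. In the lymphomas 12.4% of kept genes had a log2 ratio over control at or above that of *Myc*, and in *Id2*-/-*Id3*-/- CD4SP cells 15.2% did. In the *Id3*-/- labelled libraries, where ratios were generally smaller, 7.94% of genes were at or above it. In TFH cells 6.53% were at or below it.

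The *Myc* paralogs contributed little to the network transcripts of these cells. *Mycn* (ENSMUSG00000037169, chr12:12936093-12941914, minus strand), the paralog of neural and early lymphoid progenitors, averaged 0.23 in the lymphomas, 1.99 in *Id2*-/-*Id3*-/- CD4SP cells, 3.12 in TFH cells, 4.49 in the *Id3*-/- labelled libraries and 7.04 in control CD4SP cells. Being under 10 in every group, it is the 1 member of the 10 that was not kept, and no ratio is given for it. *Mycl* (ENSMUSG00000028654, chr4:122995652-123002485, plus strand), a paralog used by dendritic cells, averaged 1.74 in the lymphomas, 2.69 in *Id2*-/-*Id3*-/- CD4SP cells, 15.3 in TFH cells, 2.48 in the *Id3*-/- labelled libraries and 2.68 in control CD4SP cells. It was kept through its TFH average alone, so its log2 ratio of 2.15 there had to be large, and with 10 added to each average in place of 1 it was 0.998, just short of 2-fold. Other cell types moved with it: the B cell gene *Ms4a1* averaged 82.0 in TFH cells and 6.72 in control CD4SP cells, *Cd79a* 145 in TFH cells and 38.3 in control cells, and *Cd79b* 128 in TFH cells and 22.0 in control cells. The myeloid genes *Lyz2*, *Csf1r*, *Itgam* and *Cd14* summed to 64.0 in TFH cells and 80.4 in control cells. Of these genes, *Itgam* averaged 28.9 in TFH cells and 69.4 in control cells. The others were higher in TFH cells than in control cells: *Csf1r* (21.3 and 5.86), *Lyz2* (12.2 and 3.82) and *Cd14* (1.55 and 1.33). Their part in the *Mycl* value was not tested.

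*Max* (ENSMUSG00000059436, chr12:76937269-76962201, minus strand), the obligate partner, was the most even member together with *Mnt*. It averaged 1831 in the lymphomas, 2268 in *Id2*-/-*Id3*-/- CD4SP cells, 2569 in TFH cells, 2169 in the *Id3*-/- labelled libraries and 1955 in control CD4SP cells. The highest and lowest averages were 1.40 times apart, in an order unlike that of *Myc*, with TFH cells highest and the lymphomas lowest. No *Max* ratio reached 2-fold, the log2 ratios over control lying between -0.09 in the lymphomas and 0.39 in TFH cells.

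**Figure D1:**
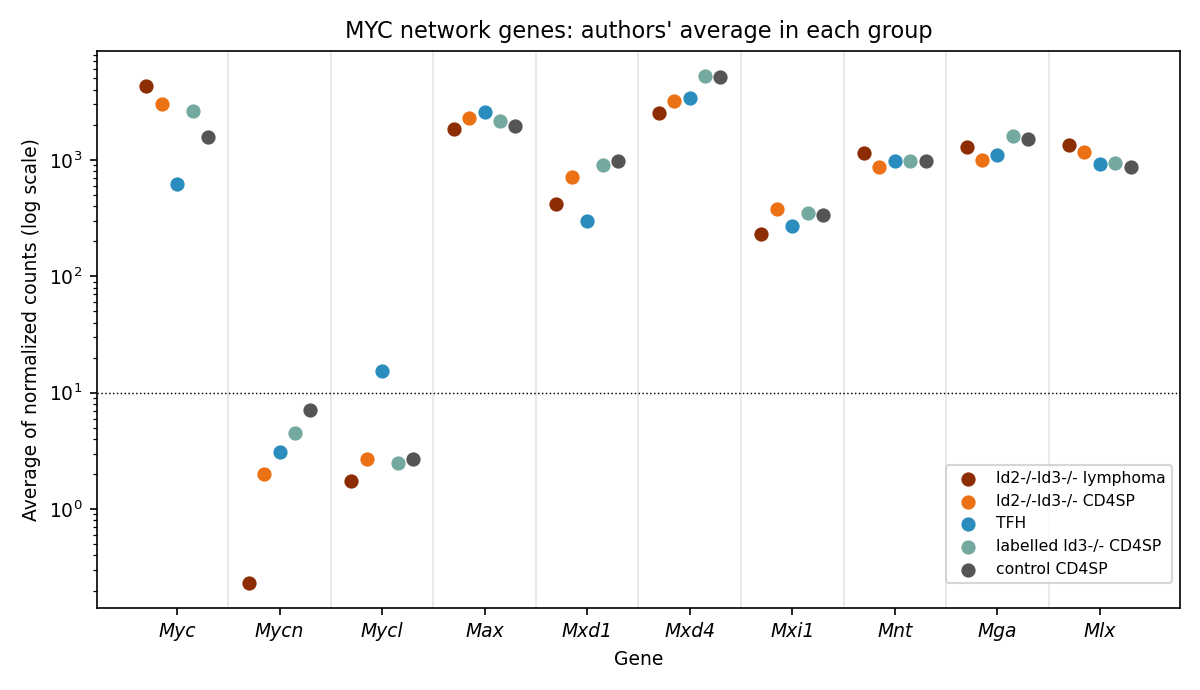
Average normalized count of each of the 10 genes in each group on a log axis, 1 point per group average, with no error bars because the table gives 1 average per group. The dotted line marks 10. *Myc* runs from 626 in TFH cells to 4326 in the lymphomas, *Mxd1* and *Mxd4* are lower in the lymphomas than in control cells, and *Max* and *Mnt* keep close together.

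Among the antagonists, *Mxd1*, *Mxd4* and *Mxi1* all stood below control in the lymphomas, the group with the highest *Myc*. *Mxd1* (ENSMUSG00000001156, chr6:86647042-86669161, minus strand), the founding MXD repressor, averaged 418 in the lymphomas, 706 in *Id2*-/-*Id3*-/- CD4SP cells, 298 in TFH cells, 906 in the *Id3*-/- labelled libraries and 984 in control CD4SP cells. It was 2.35-fold lower than control in the lymphomas (log2 ratio -1.23) and 3.30-fold lower in TFH cells (-1.72), and in TFH cells 4.30% of kept genes had a ratio at or below it. TFH cells, with the lowest *Myc*, thus also had the lowest *Mxd1*. In *Id2*-/-*Id3*-/- CD4SP cells the log2 ratio was -0.48 and in the *Id3*-/- labelled libraries it was -0.12, both within 2-fold.

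*Mxd4* (ENSMUSG00000037235, chr5:34173883-34187720, minus strand), another MXD repressor, had in every group a higher level per kilobase of exon than *Mxd1* or *Mxi1*. It averaged 2522 in the lymphomas, 3186 in *Id2*-/-*Id3*-/- CD4SP cells, 3419 in TFH cells, 5241 in the *Id3*-/- labelled libraries and 5189 in control CD4SP cells. The lymphomas were 2.06-fold below control (log2 ratio -1.04), while *Id2*-/-*Id3*-/- CD4SP cells and TFH cells were within 2-fold at -0.70 and -0.60. The libraries labelled *Id3*-/- and the control cells had nearly the same average. *Mxi1* (ENSMUSG00000025025, chr19:53310518-53375810, plus strand), also called MXD2, averaged 231 in the lymphomas, 375 in *Id2*-/-*Id3*-/- CD4SP cells, 271 in TFH cells, 351 in the *Id3*-/- labelled libraries and 335 in control CD4SP cells. Its log2 ratios over control lay between -0.53 in the lymphomas and 0.16 in *Id2*-/-*Id3*-/- CD4SP cells, all within 2-fold. *Mxd3*, the MXD gene tied to S phase and not in the list of 10, averaged 268 in the lymphomas, 362 in *Id2*-/-*Id3*-/- CD4SP cells, 172 in TFH cells, 256 in the *Id3*-/- labelled libraries and 250 in control CD4SP cells, within 2-fold of control in each.

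*Mnt* differed little, and *Mga* more, though both were within 2-fold of control in every group. *Mnt* (ENSMUSG00000000282, chr11:74830920-74845725, plus strand), the broadly expressed MAX-binding repressor, averaged 1135 in the lymphomas, 873 in *Id2*-/-*Id3*-/- CD4SP cells, 980.2 in TFH cells, 979 in the *Id3*-/- labelled libraries and 968 in control CD4SP cells. This is a span of 1.30 times, the narrowest of the 10 genes. *Mga* (ENSMUSG00000033943, chr2:119897228-119969581, plus strand) averaged 1284 in the lymphomas, 989 in *Id2*-/-*Id3*-/- CD4SP cells, 1094 in TFH cells, 1605 in the *Id3*-/- labelled libraries and 1507 in control CD4SP cells. Its lowest log2 ratio over control was -0.61, in *Id2*-/-*Id3*-/- CD4SP cells, within 2-fold. The lymphomas were above *Id2*-/-*Id3*-/- CD4SP cells for both genes, at log2 ratios of 0.38 and 0.38.

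On the MLX arm, *Mlx* (ENSMUSG00000017801, chr11:101087277-101092207, plus strand) averaged 1332 in the lymphomas, 1178 in *Id2*-/-*Id3*-/- CD4SP cells, 925 in TFH cells, 934 in the *Id3*-/- labelled libraries and 864 in control CD4SP cells. Its log2 ratio over control was 0.62 in the lymphomas and 0.45 in *Id2*-/-*Id3*-/- CD4SP cells, within 2-fold. *Mlxip*, which encodes its partner MondoA, averaged 1249 in the lymphomas, 955 in *Id2*-/-*Id3*-/- CD4SP cells, 1585 in TFH cells, 1626 in the *Id3*-/- labelled libraries and 1411 in control CD4SP cells. *Mlxipl*, for ChREBP, a factor of liver and fat, stayed between 5.43 and 11.9. The textbook MondoA target *Txnip*, an inhibitor of glucose uptake, averaged 1846 in the lymphomas and 1425 in *Id2*-/-*Id3*-/- CD4SP cells, against 5604 in control CD4SP cells (log2 ratios -1.60 and -1.97). It averaged 9627 in the *Id3*-/- labelled libraries (0.78) and 4482 in TFH cells (-0.32). Its paralog *Arrdc4* averaged 4.62 in the lymphomas, 29.9 in *Id2*-/-*Id3*-/- CD4SP cells, 57.4 in TFH cells, 87.5 in the *Id3*-/- labelled libraries and 29.6 in control CD4SP cells. *Txnip* was thus low in both doubly deleted groups, whereas *Arrdc4* was low in the lymphomas and not in *Id2*-/-*Id3*-/- CD4SP cells.

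**Figure D2:**
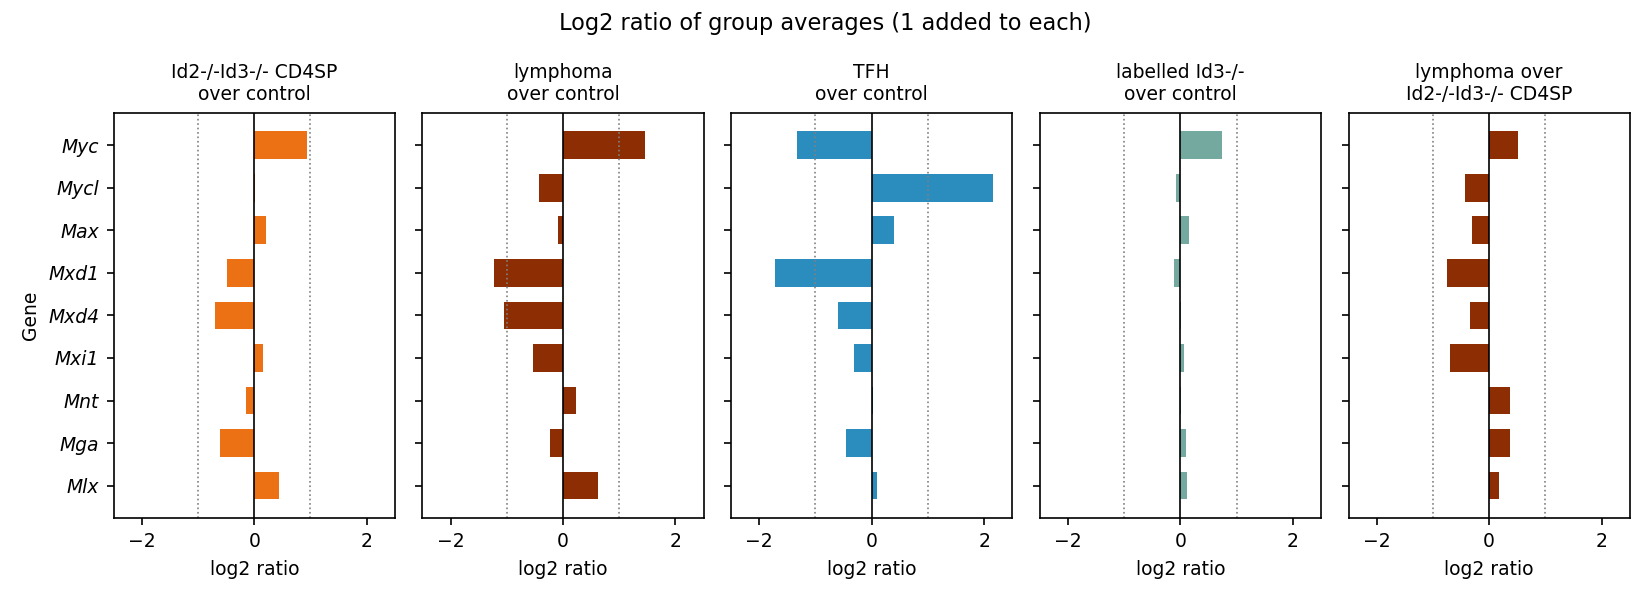
Log2 ratio of group averages, with 1 added to each, for the 9 kept genes in 5 comparisons, 1 bar per gene and 1 panel per comparison, with dotted lines at 2-fold. Bars pass the lines for *Myc*, *Mxd1* and *Mxd4* in lymphomas over control and for *Mycl*, *Myc* and *Mxd1* in TFH cells over control, and in no other panel.

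Counted over the 9 kept members, 1 gene (*Myc*) was past 2-fold higher and 2 (*Mxd1* and *Mxd4*) past 2-fold lower in lymphomas over control, where 18.2% of all kept genes were past 2-fold higher and 17.2% past 2-fold lower. In TFH cells over control 1 gene (*Mycl*) was past 2-fold higher and 2 (*Myc* and *Mxd1*) past 2-fold lower, against 11.8% and 9.8% of all kept genes. In *Id2*-/-*Id3*-/- CD4SP cells over control no member was past 2-fold, where 14.1% of kept genes were past it higher and 10.1% lower. In the *Id3*-/- labelled libraries none was either, where 5.57% and 4.43% were. Between lymphomas and *Id2*-/-*Id3*-/- CD4SP cells none was past 2-fold, where 11.1% were higher and 14.4% lower. With 9 genes, such counts do not set the family apart from the table as a whole. The median log2 ratio of the 9 genes was 0.01 in *Id2*-/-*Id3*-/- CD4SP cells, -0.23 in the lymphomas, -0.31 in TFH cells and 0.07 in the *Id3*-/- labelled libraries, while that of all kept genes lay between -0.02 and 0.03 in the 5 comparisons.

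The balance of *Myc* and the MXD genes can be read within each group, from ratios that do not depend on the scaling between groups. Per kilobase of merged exon, *Myc* stood at 4.08 times the sum of *Mxd1*, *Mxd4* and *Mxi1* in the lymphomas, 2.09 times in *Id2*-/-*Id3*-/- CD4SP cells, 0.475 times in TFH cells, 1.21 times in the *Id3*-/- labelled libraries and 0.725 times in control CD4SP cells. The lymphoma ratio was 5.62 times that of control cells, of which 2.74-fold came from the higher *Myc* average and the rest from the lower MXD sum. The *Id2*-/-*Id3*-/- CD4SP ratio was 2.89 times that of control cells, and that of the *Id3*-/- labelled libraries 1.67 times. In TFH cells, where both sides were low, the ratio was lower than in control cells, which stood at 1.53 times the TFH value. Set against *Max* in the same way, *Myc* was 2.93 times the control ratio in the lymphomas and 1.65 times in *Id2*-/-*Id3*-/- CD4SP cells, while the control ratio was 3.31 times that of TFH cells.

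**Figure D3:**
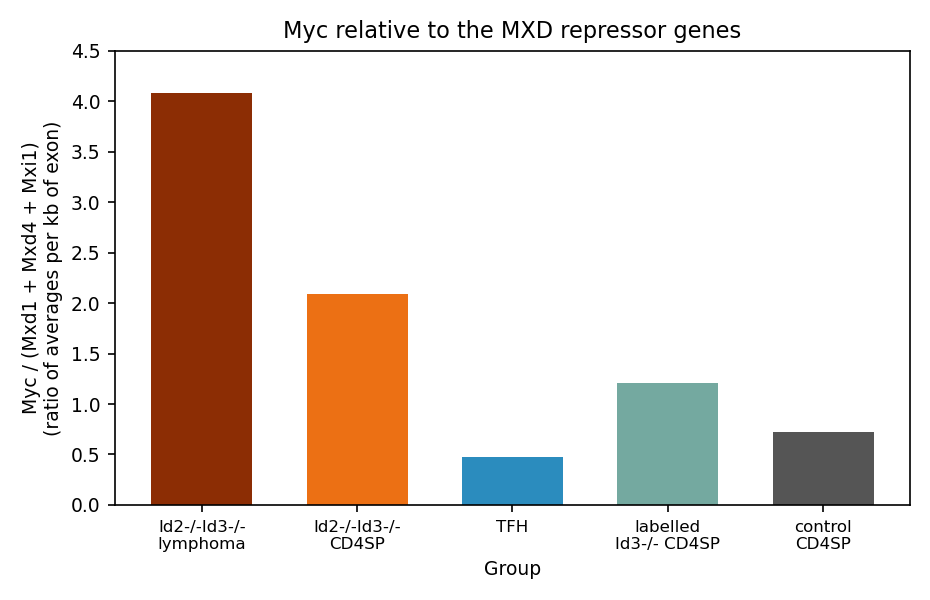
Ratio of *Myc* to the sum of *Mxd1*, *Mxd4* and *Mxi1*, from averages per kb of merged exon, 1 bar per group and no error bars. Lymphomas stand at 4.08 and *Id2*-/-*Id3*-/- CD4SP cells at 2.09, against 0.725 in control CD4SP cells, and TFH cells are lowest at 0.475.

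As shares of the 10 genes' summed level per kilobase, *Myc* made up 45.7% in the lymphomas, 35.6% in *Id2*-/-*Id3*-/- CD4SP cells, 10.6% in TFH cells, 30.7% in the *Id3*-/- labelled libraries and 21.8% in control CD4SP cells. It ranked highest in each group but TFH cells, where it came behind *Max*, *Mlx* and *Mxd4*, and control cells, where *Mxd4* was slightly ahead. *Max* held 14.6% in the lymphomas, 20.2% in *Id2*-/-*Id3*-/- CD4SP cells, 32.8% in TFH cells, 19.1% in the *Id3*-/- labelled libraries and 20.4% in control CD4SP cells. *Mxd4* held 8.53% in the lymphomas and 12.1% in *Id2*-/-*Id3*-/- CD4SP cells, against 22.9% in control CD4SP cells. *Mycn* and *Mycl* together held under 1% in every group. Dividing by the longest transcript in place of merged exons, an alternative chosen after seeing the data, gave *Myc* 41.2% in the lymphomas and 17.5% in control CD4SP cells, and put *Mxd4* marginally ahead of *Myc* in the *Id3*-/- labelled libraries (25.5% and 25.3%).

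**Figure D4:**
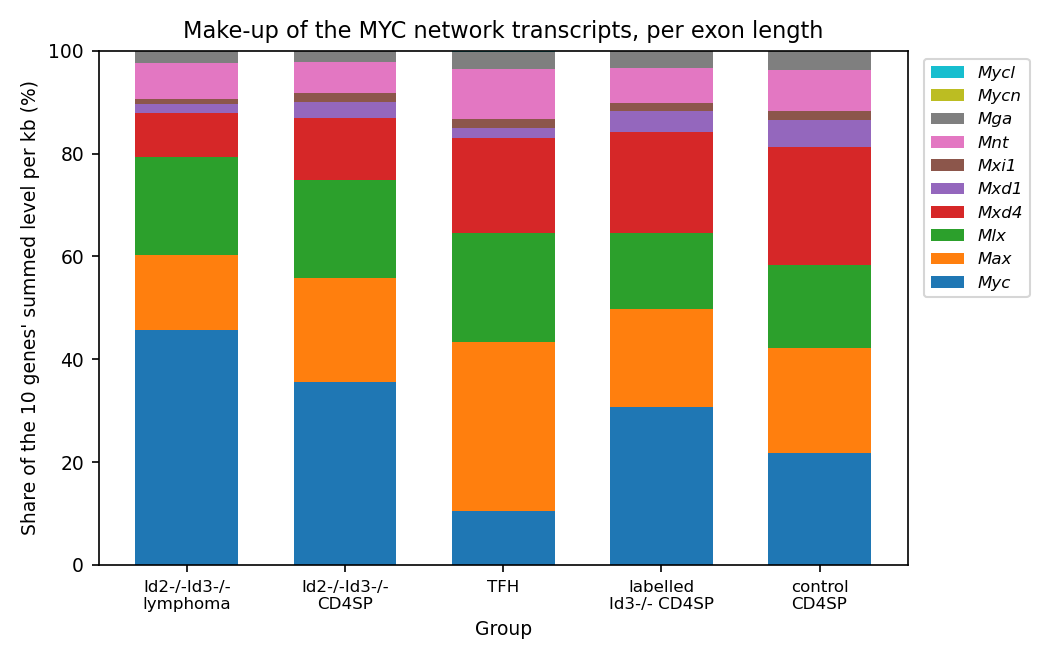
Share of the 10 genes' summed level per kb of merged exon in each group, as stacked bars that add to 100%. The *Myc* segment covers 45.7% in the lymphomas and 21.8% in control CD4SP cells, and the *Mxd4* segment 8.53% and 22.9%.

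Genes that MYC is known to activate were taken as a list of 36, all kept, chosen for ribosome production, nucleotide and polyamine metabolism and growth. In the lymphomas over control 23 were past 2-fold higher and 1 lower, with a median log2 ratio of 1.18 against 0.02 for all kept genes, of which 18.2% and 17.2% were past 2-fold in those directions. With all groups rescaled to equal sums, which shifted the median of all kept genes by -0.198 on the log2 scale in this comparison, 17 were past 2-fold higher, and the list median was 0.97 against -0.18. Of the 15536 kept genes, 2355 were past 2-fold higher after that rescaling. *Tfrc*, the transferrin receptor, averaged 7969 in the lymphomas and 1137 in control CD4SP cells (log2 ratio 2.81), and *Hk2*, a hexokinase, 264 and 46.2 (2.49). *Shmt1*, a serine hydroxymethyltransferase of one-carbon metabolism, averaged 872 in the lymphomas and 274 in control cells (1.66). The gene that was lower was the cyclin gene *Ccnd2*, at 5781 in the lymphomas and 14610 in control cells (-1.34). In *Id2*-/-*Id3*-/- CD4SP cells 4 of the 36 were past 2-fold higher and none lower, a count that does not exceed the 14.1% of all kept genes past 2-fold higher there. Their median was 0.50 against 0.02 for all kept genes, and 34 had a ratio above 0, as did 7979 of the 15536 kept genes. The largest were *Tfrc* (1.24), the spermidine synthase gene *Srm* (1.15) and *Shmt2* (1.14), the mitochondrial counterpart of *Shmt1*. In the *Id3*-/- labelled libraries none was past 2-fold, where 5.57% of all kept genes were past it higher and 4.43% lower. The median was 0.30, with *Srm* (0.61), the nucleolar gene *Nop56* (0.49) and *Shmt1* (0.48) leading. A ratio above 0 was seen there for 34 of 36, and for 7558 of the 15536 kept genes. With groups rescaled to equal sums it was seen for 30 of 36, and for 6346 of the 15536 kept genes. In TFH cells 1 was past 2-fold higher and 2 lower, no more than the 11.8% and 9.8% of all kept genes. The median was -0.35, and 30 of 36 had a ratio below 0, as did 8069 of the 15536 kept genes. The higher one there was *Odc1*, the first enzyme of polyamine synthesis (1.84), and the lower ones were *Ccnd2* (-1.27) and *Tfrc* (-1.25). Across the 4 comparisons with control, the list median thus lay on the same side as the *Myc* ratio, from values that share 1 control average.

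Between lymphomas and *Id2*-/-*Id3*-/- CD4SP cells, 6 of these 36 genes were past 2-fold higher and none lower, where 11.1% and 14.4% of all kept genes were, with a median of 0.61 against 0.03 for all kept genes. *Nme2*, a nucleoside diphosphate kinase gene, had the largest log2 ratio (1.93), and *Tfrc* (1.57) and *Hk2* (1.56) followed. *Nme2* resembles its neighbor *Nme1* in sequence, and any part of shared reads in the values of these 2 genes was not tested.

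**Figure D5:**
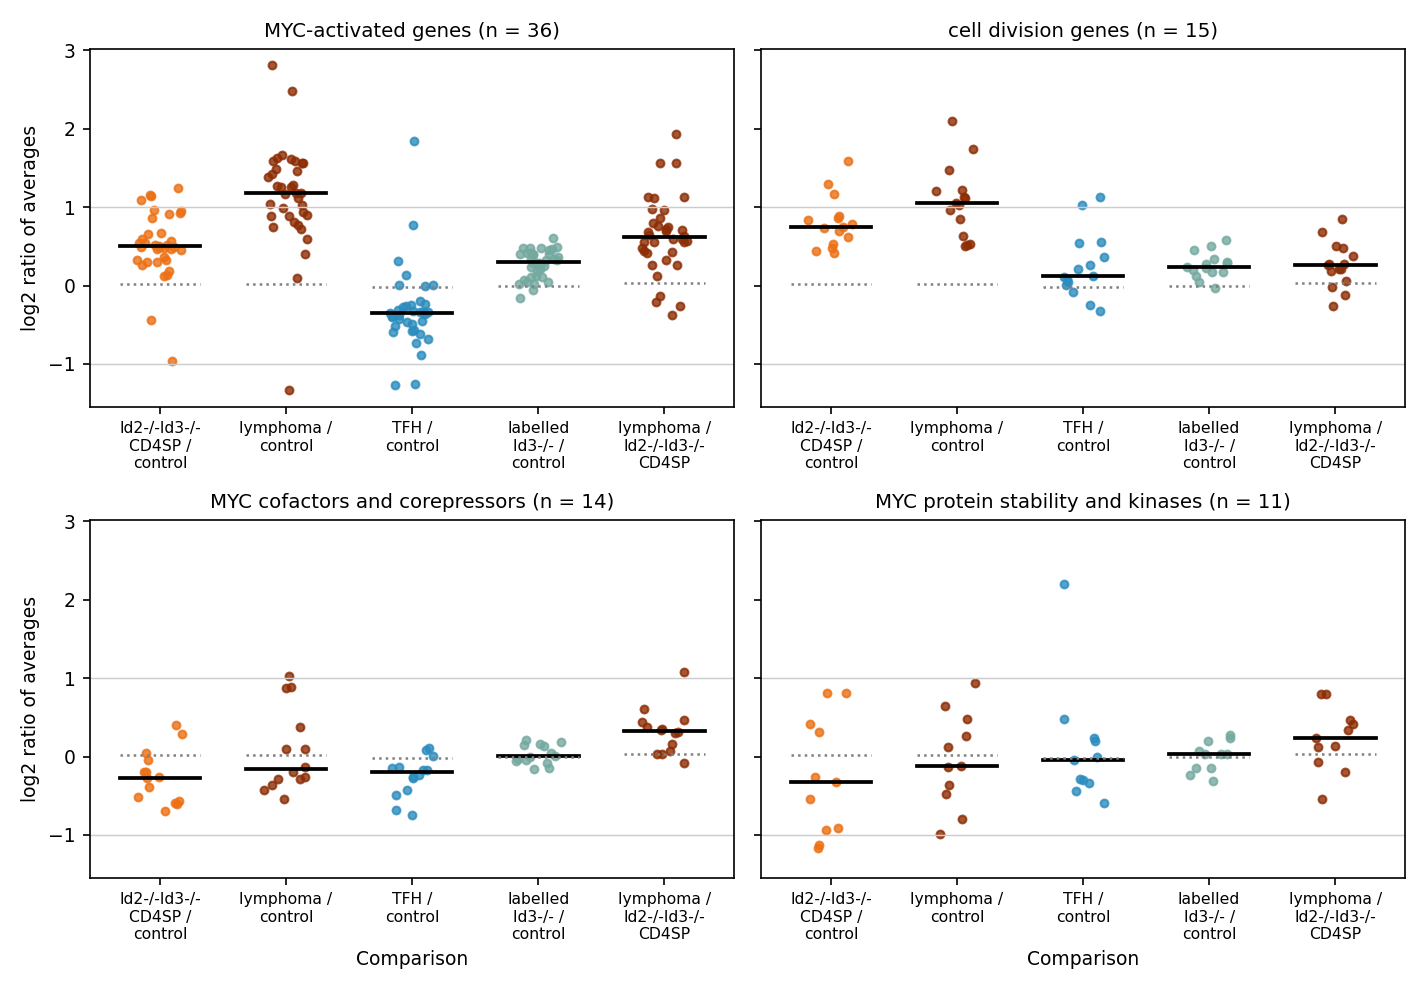
Log2 ratio of averages for the members of 4 gene lists in 5 comparisons, 1 point per gene, with the list median as a solid bar, the median of all 15536 kept genes as a dotted bar, and pale lines at 2-fold. MYC-activated genes sit mostly above 1 in lymphomas over control (median 1.18) and mostly below 0 in TFH cells over control (median -0.35).

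Genes of cell division were taken as another list. Of 15 listed, 9 were past 2-fold higher and none lower in the lymphomas over control (median 1.05), where 18.2% of all kept genes were past 2-fold higher. With groups rescaled to equal sums 5 were past 2-fold higher there, as were 2355 of the 15536 kept genes. The counts were 3 and none in *Id2*-/-*Id3*-/- CD4SP cells (median 0.75), where 14.1% of all kept genes were past 2-fold higher. Each of the 15 had a ratio above 0 there, as did 7979 of the 15536 kept genes. *Mcm6*, a subunit of the replicative helicase, averaged 6241 in the lymphomas and 4392 in *Id2*-/-*Id3*-/- CD4SP cells, against 1459.7 in control CD4SP cells (log2 ratios 2.10 and 1.59). In TFH cells, where 11.8% of all kept genes were past 2-fold higher, 2 of the 15 were (*Ccnb1*, a mitotic cyclin gene, at 1.13 and *Mcm6* at 1.03) and none lower, with a median of 0.12, so that the count is near that of the table as a whole. In the *Id3*-/- labelled libraries none was past 2-fold, where 5.57% of all kept genes were past it higher, and the median was 0.24. Between lymphomas and *Id2*-/-*Id3*-/- CD4SP cells none was past 2-fold (median 0.26), where 11.1% of all kept genes were past it higher. *Mcm3*, another helicase subunit gene, had the largest ratio at 0.85.

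Genes that MYC is known to repress did not share a direction. Of 8 listed 7 were kept, and in the lymphomas over control 3 were past 2-fold higher (*Cdkn1a*, *Cdkn2b* and *Ndrg1*) and 1 lower. The lower one was *Cdkn1b*, for the CDK inhibitor p27, at 1127 in the lymphomas and 2682 in control CD4SP cells (log2 ratio -1.25). *Ndrg1*, a hypoxia-responsive growth suppressor gene, averaged 3155 in the lymphomas, 590.4 in *Id2*-/-*Id3*-/- CD4SP cells, 69.9 in TFH cells, 1477 in the *Id3*-/- labelled libraries and 1276 in control CD4SP cells. It was highest in the group with the highest *Myc* and lowest in the group with the lowest *Myc*, although it stood below control in *Id2*-/-*Id3*-/- CD4SP cells (-1.11). *Klf6*, an immediate early zinc finger gene, was past 2-fold higher in TFH cells (2.17). In *Id2*-/-*Id3*-/- CD4SP cells 2 of the 7 were past 2-fold higher and 1 lower, in TFH cells 3 and 1, and in the *Id3*-/- labelled libraries 1 and none. Of all kept genes, 14.1% were past 2-fold higher and 10.1% lower in *Id2*-/-*Id3*-/- CD4SP cells, and 11.8% and 9.8% in TFH cells. The shares were 5.57% and 4.43% in the *Id3*-/- labelled libraries and 18.2% and 17.2% in the lymphomas. *Cdkn2b* is among the higher genes in each of these comparisons, and its averages were low. It averaged 9.72 in the lymphomas, 12.1 in *Id2*-/-*Id3*-/- CD4SP cells, 13.7 in TFH cells, 10.2 in the *Id3*-/- labelled libraries and 1.90 in control CD4SP cells. It was kept only through groups in which it reached 10, so its ratios over control there had to be large. With 7 genes, such counts do not set the list apart from the table as a whole.

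The cofactors that MYC and its antagonists recruit were flatter than the target genes. Of 14 listed, none was past 2-fold in *Id2*-/-*Id3*-/- CD4SP cells, where 14.1% of all kept genes were past it higher and 10.1% lower. The median of the list there was -0.27. A ratio below 0 was seen for 11 of the 14, and for 7534 of the 15536 kept genes. The lowest there were *Sin3a* (-0.70), *Ncor1* (-0.60) and the histone deacetylase gene *Hdac1* (-0.59). The adaptor gene *Trrap* was next at -0.57, and *Hdac2*, another histone deacetylase gene, was at -0.27. Corepressor genes thus did not stand apart in the list. In the lymphomas over control *Wdr5*, a subunit of histone methyltransferase complexes that also binds MYC, was past 2-fold higher at 1720 against 843 (log2 ratio 1.03), and the ATPase genes *Ruvbl2* and *Ruvbl1*, of the TIP60 complex, followed at 0.89 and 0.88. Of all kept genes, 18.2% were past 2-fold higher in that comparison and 17.2% lower, so 1 of 14 does not exceed that share. *Wdr5* was the 1 cofactor past 2-fold between lymphomas and *Id2*-/-*Id3*-/- CD4SP cells as well (1.08), where 11.1% of all kept genes were past it higher and 14.4% lower. In that comparison 13 of the 14 had a ratio above 0, as did 8068 of the 15536 kept genes. With groups rescaled to equal sums 10 of the 14 did, as did 6893 of the 15536 kept genes, and *Wdr5* was within 2-fold in both comparisons. In TFH cells none was past 2-fold, where 11.8% of all kept genes were past it higher and 9.8% lower. The lowest there were *Hdac2* (-0.75), the acetyltransferase gene *Kat2a* (-0.68) and the adaptor gene *Trrap* (-0.49). In the *Id3*-/- labelled libraries none was past 2-fold, where 5.57% of all kept genes were past it higher and 4.43% lower, and the median was 0.0034.

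Of 11 genes for enzymes that set MYC protein stability, 2 were past 2-fold lower in *Id2*-/-*Id3*-/- CD4SP cells over control, the kinase gene *Pim2* (-1.17) and *Ppp2r5a* (-1.13), a PP2A subunit, and none higher, where 10.1% of all kept genes were past 2-fold lower. With 11 genes, this count does not set the list apart. The deubiquitinase gene *Usp28* followed at -0.94. In the lymphomas over control none was past 2-fold, the largest being *Gsk3b*, the kinase that marks MYC for degradation, at 1126 against 2228 (-0.98), the ubiquitin ligase gene *Skp2* (0.93) and *Ppp2r5a* (-0.80). Of all kept genes, 18.2% were past 2-fold higher there and 17.2% lower. With groups rescaled to equal sums 2 of the 11 were past 2-fold lower there, as were 3275 of the 15536 kept genes. In TFH cells *Pim1*, a kinase gene induced by cytokines, was past 2-fold higher at 2571 against 560.2 in control CD4SP cells (2.20). Of all kept genes, 11.8% were past 2-fold higher there. None was past 2-fold in the *Id3*-/- labelled libraries, where 5.57% of all kept genes were past it higher and 4.43% lower. None was between lymphomas and *Id2*-/-*Id3*-/- CD4SP cells either, where 11.1% were higher and 14.4% lower. MYC protein was not measured in these data.

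The ARF and p53 arm, which restrains cells with high MYC, separated *Id2*-/-*Id3*-/- CD4SP cells from the lymphomas at *Cdkn2a*. It averaged 6.01 in the lymphomas, 192 in *Id2*-/-*Id3*-/- CD4SP cells, 7.10 in TFH cells, 17.3 in the *Id3*-/- labelled libraries and 2.57 in control CD4SP cells. *Id2*-/-*Id3*-/- CD4SP cells thus stood far above every other group, at a log2 ratio of 5.76 over control, and the lymphomas stood at -4.78 relative to *Id2*-/-*Id3*-/- CD4SP cells. *Cdkn2a* was under 10 in the lymphomas, TFH cells and control cells. It was kept only through the other groups, so its ratios over control there had to be large. A value for the whole gene cannot separate the ARF transcript from that of INK4A. *Cdkn1a*, for the CDK inhibitor p21, averaged 78.0 in the lymphomas, 33.1 in *Id2*-/-*Id3*-/- CD4SP cells, 55.6 in TFH cells, 9.41 in the *Id3*-/- labelled libraries and 8.66 in control CD4SP cells. It too was under 10 in control cells. *Mdm2*, for the p53 ubiquitin ligase, and *Trp53* itself were within 2-fold in all 5 comparisons, with log2 ratios between -0.39 and 0.41. Thus *Myc* was above control in both doubly deleted groups, while *Cdkn2a* was high in 1 of them.

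The genes whose profile over the 5 group averages was most like that of *Myc* were sought among the 10646 genes that averaged 100 or more in some group, as the smallest Euclidean distance between log2 averages centered on each gene's mean. The nearest were *Trim36* at a distance of 0.364, *Srm* at 0.434, *Ankrd13b* at 0.437, *Smyd2* at 0.597 and *Eno3* at 0.604. *Srm*, named above among the MYC-activated genes, averaged 2622 in the lymphomas, 1928 in *Id2*-/-*Id3*-/- CD4SP cells, 468 in TFH cells, 1321 in the *Id3*-/- labelled libraries and 868 in control CD4SP cells. *Trim36*, a RING finger gene, averaged 275 in the lymphomas, 147 in *Id2*-/-*Id3*-/- CD4SP cells, 36.9 in TFH cells, 177 in the *Id3*-/- labelled libraries and 86.6 in control CD4SP cells. A likeness over 5 averages is a description of those averages.

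Signs of other cells in the sorted samples were measured beside these values. In the lymphomas *Cd8a* averaged 1388 against 128 in control CD4SP cells, the tumor average including 2 CD8+ sorts. *Cd8b1* went the other way, at 461 in the lymphomas and 588 in control cells. *Cd4* averaged 4110 in the lymphomas and 15039 in control cells. The B cell gene *Cd79b* averaged 455 in the lymphomas and 27.7 in *Id2*-/-*Id3*-/- CD4SP cells, against 22.0 in control CD4SP cells, while *Ms4a1* was at 5.82 in the lymphomas and 6.72 in control cells. *Cd79a* averaged 42.6 in the lymphomas and 38.3 in control cells. The 4 myeloid genes summed to 429 in the lymphomas, 196 in *Id2*-/-*Id3*-/- CD4SP cells, 138 in the *Id3*-/- labelled libraries and 80.4 in control CD4SP cells. *Itgam* was the largest in the first 2 groups at 274 and 181, against 45.8 in the *Id3*-/- labelled libraries and 69.4 in control cells. *Lyz2* averaged 123 in the lymphomas, 7.70 in *Id2*-/-*Id3*-/- CD4SP cells, 65.1 in the *Id3*-/- labelled libraries and 3.82 in control cells. *Csf1r* averaged 30.9, 7.22, 25.9 and 5.86 in the same order. *Cd14* was at or below 1.55 in each group. The 3 erythroid genes summed to 156 in the lymphomas, 102 in the *Id3*-/- labelled libraries and 23.9 in control CD4SP cells. Their part in the *Myc* network values was not tested.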

How the data were processed

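RNA-seq of 20 samples in 5 groups was analysed from 1 deposited table of 39179 genes, 37607 with a symbol. Strand-specific (dUTP) libraries were sequenced on an Illumina instrument. The authors used OSA in Array Studio for alignment to mm10, RSEM for quantification and DESeq for normalization (versions: not given in the sources used here). Each deposited signal of a gene is the authors' average of DESeq-normalized counts over the libraries of a group, and the table holds 0 columns with values per sample. The methods state that genes under 10 in all samples were removed, yet rows at 0 are present. The table's columns with the authors' own fold changes, p-values and false discovery rates were not used. Groups came from the sample labels.

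Genes were kept where a group average reached 10 (15536 genes). Log2 ratios had a pseudocount of 1, and 2-fold was the limit for a call. The code for ratios and calls was checked on simulated averages with known differences, which says nothing of replicate error. No test was made, since group averages carry no spread. Positions and exon lengths are from GENCODE (GRCm38, the same build as mm10), promoters from RefSeq. Alternatives were other pseudocounts, filters, fold limits and scalings. Members and gene lists were chosen with earlier results of these data known. Named are all members, the 3 other network genes, up to 3 genes per list and comparison with the largest absolute log2 ratio and an average of at least 100, every gene of lists of 4 or fewer, *Id2* and *Id3*, the 5 genes nearest to *Myc* and the marker genes, of which 1 is not reported here. *Pvt1*, and genes named only to resolve a count of 5 or fewer, were chosen after their values were seen. Protein sequences were not analysed here. Python 3.11.15, numpy 2.4.6, pandas 2.3.3 and matplotlib 3.10.9 were used.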

Additional observations from a re-analysis of the deposited data

How the results depend on the processing

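With averages only, no leave-one-out of libraries could be run, and No paired analysis was possible because the table gives 1 average per group. Of 310 recomputed log2 ratios of the 9 kept members under 7 other settings, 301 kept their side of the fold limit, 8 passed it only at a limit of 1.5-fold, and 1 dropped below it (*Mycl* in TFH cells, 0.998 with 10 added). *Mycl* had no value under the filter of 100. At a limit of 1.5-fold the count of members past it was 3 in *Id2*-/-*Id3*-/- CD4SP cells over control, 1 in the *Id3*-/- labelled libraries over control and 2 in lymphomas over *Id2*-/-*Id3*-/- CD4SP cells. With no filter, *Mycn* made that count 1 in *Id2*-/-*Id3*-/- CD4SP cells over control and 1 in lymphomas over *Id2*-/-*Id3*-/- CD4SP cells. The counts of all genes past the limit varied with the filter and the limit. With no filter they were 7413 in *Id2*-/-*Id3*-/- CD4SP cells, 9856 in lymphomas, 6472 in TFH cells and 4480 in the *Id3*-/- labelled libraries over control, and 9548 in lymphomas over *Id2*-/-*Id3*-/- CD4SP cells. With an average of at least 100 they were, in the same comparisons, 2030, 2909, 1773, 620 and 1613, and at 1.5-fold 6619, 8494, 5662, 3153 and 6580. With 10 added they were 705 in the *Id3*-/- labelled libraries over control and 2583 in lymphomas over *Id2*-/-*Id3*-/- CD4SP cells. The numbers for the settings of the report were 3757, 5498, 3352, 1554 and 3959. Rescaling to equal sums shifted the median of all kept genes by -0.198 in lymphomas over control and by -0.117 in lymphomas over *Id2*-/-*Id3*-/- CD4SP cells. Depth per library is unknown, which limits what can be said of genes as low as *Mycn*, *Mycl* and *Arrdc4*.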

Other observations

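*Pvt1*, the long noncoding RNA gene beside *Myc* (chr15:62037986-62378096, plus strand), was looked up after the values of *Myc* were seen. It averaged 236 in the lymphomas, 131 in *Id2*-/-*Id3*-/- CD4SP cells, 155 in TFH cells, 171 in the *Id3*-/- labelled libraries and 94.0 in control CD4SP cells. Its log2 ratio over control was 1.32 in the lymphomas and 0.47 in *Id2*-/-*Id3*-/- CD4SP cells. In TFH cells it was 0.72, on the other side of 0 from the *Myc* ratio of -1.33. These are averages without spread, and no test was made.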
